A study of Homo sapiens with 9 samples.

Results

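Of the 764 autosomal γH2AX peaks that both untreated replicates shared, 603 had no peak in either replicate of at least 1 of 3 replication stress treatments, and these 603 sites are described here. A site was a peak of untreated replicate 1 on chromosomes 1 to 22 that overlapped a peak of untreated replicate 2 by at least 1 bp. The list of untreated replicate 1 held 4779 autosomal peaks, and the 8 lists together held 213467 peaks. The remaining 161 replicated sites had a peak in at least 1 replicate of each treatment and are called kept sites. The members were thus chosen by the presence or absence of peaks in all 8 lists, so every count of present and missing peaks below is a description of that choice and carries no test.

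γH2AX was mapped by chromatin immunoprecipitation and sequencing (ChIP-seq) in human B-lymphoblastoid cells, a line that the sample labels call GM09027A and the study's methods GM07027. Untreated cells were compared with cells given aphidicolin (APH, 0.1 µg/mL by the labels), hydroxyurea (HU, 2 mM) or methyl methanesulfonate (MMS, 200 µM) for 24 h, with 2 replicates per group from independent treatments and immunoprecipitations. All groups came from 1 cell line, and an input library served as the control for peak calling and is not analysed here. The 2 untreated lists held 4797 and 4343 peaks, the APH lists 17680 and 14016, the HU lists 79950 and 69977 and the MMS lists 12216 and 10488. Read numbers were not given, so the depth behind a peak or a missing peak is unknown. The lists hold no expression data, and the cell type could not be checked against markers.

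H2AX is a variant of histone H2A. The kinases ATM and ATR phosphorylate its tail where DNA is broken or a replication fork has stalled, and the phosphorylated form, γH2AX, spreads along the chromatin around the damage and helps to hold repair factors there. APH inhibits the replicative DNA polymerases, HU inhibits ribonucleotide reductase and depletes the nucleotide pool, and MMS alkylates DNA bases, which slows forks on the damaged template. Chromosome ends carry telomere repeats and, inward of them, subtelomeric sequence that is rich in duplications, and γH2AX is known to form at telomeres that have lost their protection.

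To show what the sites contain, the central bases (at most 300) of the site with the highest mean untreated fold enrichment are printed for 5 of the 7 combinations of missing treatments, read on the plus strand of GRCh38. Where the first site could not be shown by the rule given with the methods, the next was taken, which was the case for HU alone. Capitals mark CpG dinucleotides, the pairs of bases at which human DNA is methylated.
Lacking HU and MMS, chr5:97776-98075: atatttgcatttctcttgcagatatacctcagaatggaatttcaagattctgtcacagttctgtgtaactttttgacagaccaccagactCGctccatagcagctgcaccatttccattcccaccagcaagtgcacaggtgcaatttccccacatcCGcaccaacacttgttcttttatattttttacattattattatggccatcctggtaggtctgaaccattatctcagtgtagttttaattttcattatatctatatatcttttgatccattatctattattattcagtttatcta
Lacking HU alone, chr17:83186466-83186765: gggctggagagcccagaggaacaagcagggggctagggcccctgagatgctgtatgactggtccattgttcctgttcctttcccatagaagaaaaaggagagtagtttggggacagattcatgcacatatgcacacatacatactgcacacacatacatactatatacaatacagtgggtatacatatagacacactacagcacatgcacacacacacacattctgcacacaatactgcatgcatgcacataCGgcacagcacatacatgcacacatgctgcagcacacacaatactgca
Lacking MMS alone, chr5:181206157-181206456: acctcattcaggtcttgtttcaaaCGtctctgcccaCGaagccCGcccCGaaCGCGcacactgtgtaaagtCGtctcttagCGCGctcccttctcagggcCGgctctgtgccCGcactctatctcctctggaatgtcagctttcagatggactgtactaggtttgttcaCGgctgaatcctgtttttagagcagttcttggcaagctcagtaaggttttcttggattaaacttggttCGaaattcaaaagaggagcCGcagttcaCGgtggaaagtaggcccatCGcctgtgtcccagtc
Lacking APH and MMS, chr5:173806804-173807103: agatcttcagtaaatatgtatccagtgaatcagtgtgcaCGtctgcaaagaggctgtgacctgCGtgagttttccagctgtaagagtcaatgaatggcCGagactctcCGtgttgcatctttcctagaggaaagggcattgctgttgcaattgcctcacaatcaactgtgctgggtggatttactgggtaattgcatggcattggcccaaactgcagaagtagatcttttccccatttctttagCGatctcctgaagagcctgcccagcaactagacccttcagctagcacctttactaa
Lacking APH alone, chr12:49826530-49826776: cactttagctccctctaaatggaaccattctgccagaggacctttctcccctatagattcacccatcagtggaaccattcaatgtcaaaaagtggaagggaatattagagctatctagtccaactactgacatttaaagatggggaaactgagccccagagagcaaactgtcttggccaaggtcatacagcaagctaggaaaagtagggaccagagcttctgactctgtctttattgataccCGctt

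The stretch lacking HU and MMS lay in an intron of PLEKHG4B, a gene at the tip of the short arm of chromosome 5, and that lacking HU alone in an intron of a long non-coding RNA gene (ENSG00000262898) at the tip of 17q. The stretch lacking MMS alone came from a site near the end of 5q whose peak touches a non-coding exon of ENSG00000248514. That gene spans chr5:181205361-181206120, so the printed bases lie outside it. The stretch lacking APH and MMS came from an intron of the non-coding gene LINC01485, and that lacking APH alone from an intron of NCKAP5L on chromosome 12. CpG numbers in these stretches ran from 1 (HU alone and APH alone) to 16 (MMS alone), and GC content from 36.0% (HU and MMS) to 52.0% (MMS alone).

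At the site lacking HU and MMS in PLEKHG4B (chr5:97741-98110), fold enrichment over input was 3.14 and 3.91 in the untreated replicates and 2.80 and 2.72 under APH, with no peak in any HU or MMS list. The site was picked for its high untreated values, so its lower APH values are not read as a difference, and over all members with an APH peak the median enrichment was 2.79 and 2.87 in the APH replicates and 2.79 without treatment. At the site lacking all 3 treatments with the highest enrichment (chr9:1144867-1146323), the untreated values were 3.25 and 3.69, and the nearest peaks lay 6228 and 3879 bp away in the APH lists, 152470 and 151046 bp away in the HU lists and 69099 and 58906 bp away in the MMS lists. HU and MMS peaks were thus absent over a wide stretch around this site, while APH peaks stood within 10 kb. At the LINC01485 site (chr5:173806634-173807273), which lacked APH and MMS, enrichment was 3.21 and 2.71 without treatment and 3.07 in HU replicate 1, and HU replicate 2 had its nearest peak 774 bp away. At the NCKAP5L site (chr12:49826530-49826776), which lacked APH alone, the untreated values were 3.00 and 2.86, the HU values 2.95 and 3.17, and MMS replicate 1 had 2.78. A peak in 1 replicate was enough for a treatment to count as present, as at these last sites.

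**Figure D1:**
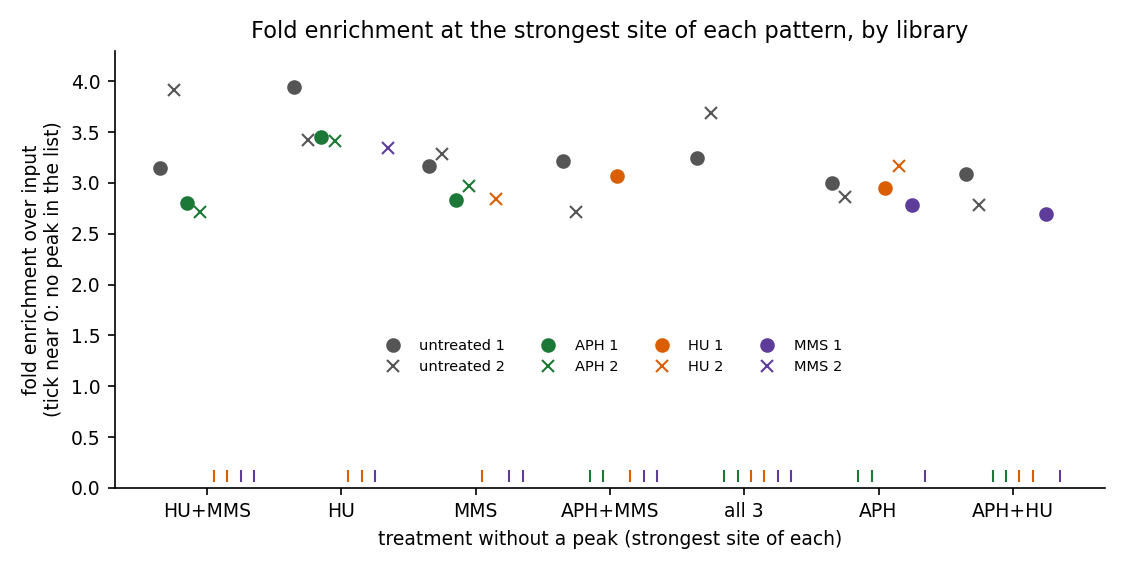
Fold enrichment over input (vertical axis) in each of the 8 peak lists at the strongest site of each combination of missing treatments (horizontal axis). Circles are replicate 1, crosses replicate 2, and a tick near 0 marks a list without a peak at the site; every untreated value lies between 2.71 and 3.94, and the site for HU alone (chr8:145066985-145069395) is not the one whose bases are shown.

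HU and MMS were the treatments most often missing. Among the 603 members, 415 (68.8%) lacked a peak under HU, 432 (71.6%) under MMS and 159 (26.4%) under APH. Over all 4779 autosomal peaks of untreated replicate 1, of which 16.0% overlapped replicate 2, 50.1% had no HU peak, 83.6% no MMS peak and 67.9% no APH peak, 94.5% lacked at least 1 treatment and 31.7% lacked all 3. Because the rule used these same lists, the members' shares are set beside those of all peaks without a reading. A total of 261 members lacked 1 treatment, 281 lacked 2 and 61 (10.1%) lacked all 3. The most frequent combination was HU with MMS (199 sites), followed by HU alone (143), MMS alone (102), APH with MMS (70), all 3 (61), APH alone (16) and APH with HU (12).

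**Figure D2:**
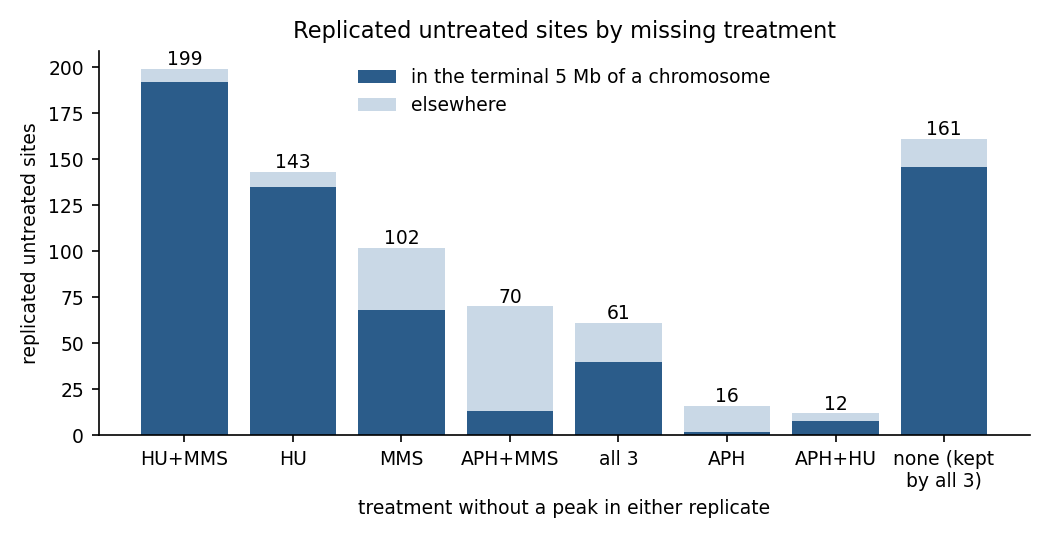
Number of replicated untreated sites (vertical axis) for each combination of treatments without a peak (horizontal axis), split into sites in the terminal 5 Mb of a chromosome (dark) and elsewhere (light). Of the 199 sites lacking HU and MMS, 192 were in a terminal 5 Mb, against 13 of the 70 lacking APH and MMS.

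Where a treatment was present at a member, it was most often in both replicates under APH and least often under MMS. APH peaks were found in both replicates at 307 members, in replicate 1 only at 77 and in replicate 2 only at 60. The corresponding numbers were 107, 41 and 40 under HU and 49, 70 and 52 under MMS. Most members with an MMS peak therefore had it in 1 replicate.

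A missing peak at the site itself did not always mean an empty neighbourhood. The nearest peak of the missing treatment lay at a median of 3128 bp under APH, 6238 bp under MMS and 12959 bp under HU. Over all untreated replicate 1 peaks that lacked the treatment, the medians were 8174 bp, 13446 bp and 7422 bp. Of the 415 sites without an HU peak, 81 were more than 100 kb from any HU peak, 35 of them at the end of 9p, 11 at 2p and 11 at 17p. Sites more than 100 kb away numbered 16 for MMS and 0 for APH. Over all untreated replicate 1 peaks, 424 of the 2392 without an HU peak were more than 100 kb away. The same held for 252 of the 3997 without an MMS peak and 149 of the 3245 without an APH peak. All 61 members that lacked all 3 treatments had a treated peak within 10 kb, at distances from 1 to 8438 bp and a median of 1428 bp, and that nearest peak was an APH peak for 40 of the 61, an HU peak for 15 and an MMS peak for 6. With the requirement that no peak of the treatment lie within 10 kb, 338 sites remained as members and 0 of these lacked all 3.

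Over all replicated sites together, missing peaks went with weak and narrow untreated peaks for APH and MMS, and less so for HU. Replicated sites were divided into quartiles by their mean untreated fold enrichment. From the weakest to the strongest quartile, the share without an APH peak went from 45.0% to 6.81% and the share without an MMS peak from 70.2% to 40.3%, each step being downward. The share without an HU peak was 53.4%, 51.3%, 59.2% and 53.4%, with no steady course. Over quartiles of width, the share without a peak went from 42.7% to 0.524% for APH, from 75.0% to 25.7% for MMS and from 58.3% to 47.6% for HU. A wider peak meets the 1 bp overlap more easily, so the rule itself favours a fall with width. Weak and narrow sites lay more often outside the terminal 5 Mb, where the strength quartiles held 83, 47, 20 and 10 sites. The shares there were 60.2%, 63.8%, 65.0% and 30.0% for APH and 69.9%, 78.7%, 85.0% and 70.0% for MMS. In the terminal 5 Mb they were 33.3%, 8.33%, 2.92% and 5.52% for APH and 70.4%, 59.7%, 47.4% and 38.7% for MMS. By width, the HU share went from 73.0% to 47.9% in the terminal 5 Mb, and from 36.4% to 10.5% over the first 3 quartiles elsewhere. The differences between treatments in this respect were not tested, because the same sites and untreated lists enter all 3.

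**Figure D3:**
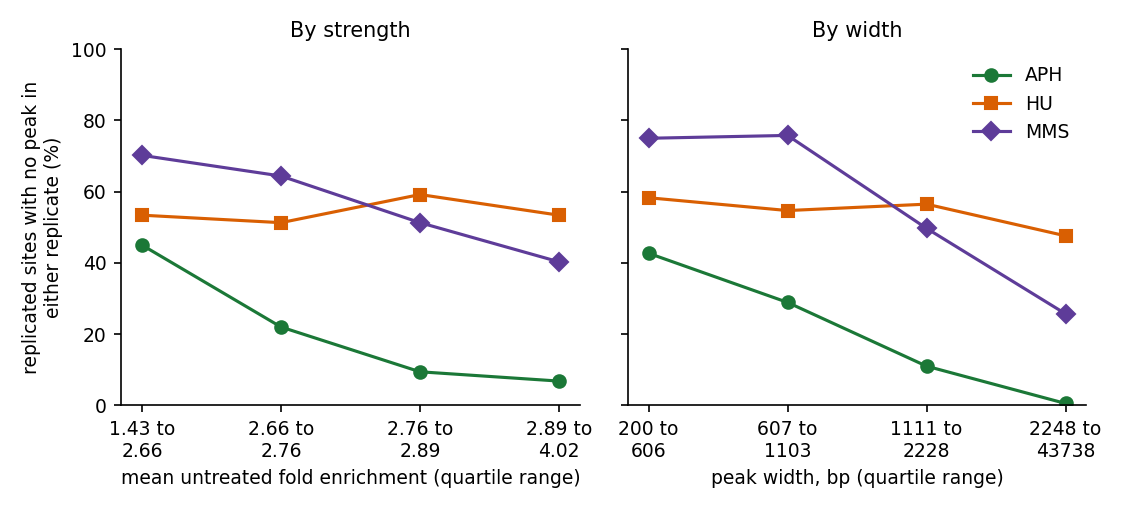
Percentage of the 764 replicated sites with no peak in either replicate of APH, HU or MMS (vertical axis), by quartile of mean untreated fold enrichment (left) and of peak width (right). APH went from 45.0% to 6.81% over the strength quartiles, and HU was between 51.3% and 59.2% in all 4.

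The members were wider than untreated peaks in general and narrower than the kept sites. Their widths ran from 200 to 24721 bp with a median of 942 bp, against 2623 bp at kept sites and 534 bp over all untreated replicate 1 peaks. A wider peak meets the 1 bp overlap with replicate 2 and with treated peaks more easily, so the rule itself favours this order. Median fold enrichment was 2.76 in untreated replicate 1 and 2.71 in replicate 2 at members, and 2.88 and 2.82 at kept sites. A q-value of at most 0.05 was reached by 20 members (3.32%) in untreated replicate 1 and by 6 (0.995%) in both replicates. The shares were 6.21% and 3.11% at kept sites and 0.879% and 0.230% over all untreated replicate 1 peaks. Most of the members are thus peaks that passed the p-value cutoff of the peak caller and not a correction for multiple testing. The widest 3 all lay on 9p (chr9:781071-805791, chr9:999256-1014618 and chr9:908070-923419), lacked HU alone, and measured 24721, 15363 and 15350 bp.

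The edges of the selection were narrow in base pairs. The members closest to the overlap limit shared 1 bp (chr9:1058758-1059048) and 6 bp (chr20:64145-65856) with a peak of untreated replicate 2, and the peaks just outside it were adjacent to such a peak (0 bp between, chr12:258161-258640) or 1 bp away (chr10:71733803-71734034). Among sites that lacked 1 treatment, the closest to being kept were 3 bp from an MMS peak (chr17:770897-771522) and 47 bp from an APH peak (chr9:37413537-37414190). The kept sites with the least overlap shared 18 bp (chr7:158780850-158781260) and 61 bp (chr22:50597253-50599207) with a treated peak. In all, 49 members overlapped replicate 2 by less than 100 bp.

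Members were concentrated at chromosome ends. Of the 603, 458 (76.0%, 95% Wilson interval 72.4 to 79.2, counting error only) lay in the terminal 5 Mb, which make up 7.65% of the autosomal sequence, and 366 (60.7%) in the terminal 1 Mb. The share in the terminal 5 Mb was 90.7% at kept sites, 30.4% over all untreated replicate 1 peaks and 21.1% over those without overlap in replicate 2. Neighbouring sites are not independent, since 473 members (78.4%) lay within 100 kb of another. With members within 100 kb of each other joined, there were 175 loci, of which 51 (29.1%) were in a terminal 5 Mb. The loci at ends thus held more members each than the others.

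The treatments missing at chromosome ends and elsewhere were not the same. Of the 604 replicated sites in the terminal 5 Mb, 62.1% had no HU peak, 51.8% no MMS peak and 10.4% no APH peak. Of the 160 replicated sites elsewhere, 25.0% had no HU peak, 74.4% no MMS peak and 60.0% no APH peak. End sites thus mostly lacked HU and held APH, and the others mostly lacked MMS and APH and held HU. Without the end of 9p, 54.3% of the 420 end sites left had no HU peak, 53.8% no MMS peak and 8.10% no APH peak. At those ends HU was thus missing about as often as MMS. Members lacking HU alone were in a terminal 5 Mb in 94.4% of cases and those lacking HU and MMS in 96.5%, against 18.6% for APH with MMS and 12.5% for APH alone.

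The contrast between ends and other places was seen for APH and HU also among sites of like width or strength, and not for MMS in the lowest classes. In the narrowest quartile, 29.6% of 115 end sites and 62.3% of 77 other sites had no APH peak, 73.0% and 36.4% had no HU peak, and 77.4% and 71.4% had no MMS peak. In the second width quartile, the APH shares were 11.8% of 127 and 63.5% of 63, and the HU shares 74.0% and 15.9%. The widest quartile held 1 site outside the ends and allowed no such comparison. In the weakest strength quartile, 33.3% of end sites and 60.2% of others had no APH peak, 74.1% and 26.5% had no HU peak, and 70.4% and 69.9% had no MMS peak.

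The contrast between ends and other places changed when the lists were limited by size or by p-value. The HU lists were the longest and held 1292 and 1243 peaks in the terminal 1 Mb, which is 1.62% and 1.78% of their autosomal peaks and near the 1.53% of sequence found there. The untreated lists held 972 and 891 peaks there (20.3% and 20.6%), the APH lists 1578 and 1390 (8.94% and 9.92%) and the MMS lists 743 and 624 (6.09% and 5.96%). By number the HU lists thus exceeded the untreated and MMS lists at the tips, and by share they were the lowest. With each treated list limited to its strongest 4327 autosomal peaks, the number in the shorter untreated list, the share without an HU peak was 95.5% at ends and 83.1% elsewhere, and the share without an APH peak 21.5% and 80.0%. The difference between ends and other places was then no smaller for APH, and smaller for HU. Both HU shares were high under this limit, which leaves little room for a difference, and the part played by list size was not tested. With a −log10 p of at least 4 in all 8 lists, 13 replicated sites were left outside the ends and 193 at them. APH was then missing at 27 of the 193 sites at ends and 3 of the 13 elsewhere (23.1%), HU at 145 (75.1%) and 7 (53.8%) and MMS at 131 (67.9%) and 3 (23.1%). Under this setting the contrast for APH was much smaller, that for HU was smaller and that for MMS was turned around.

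**Figure D4:**
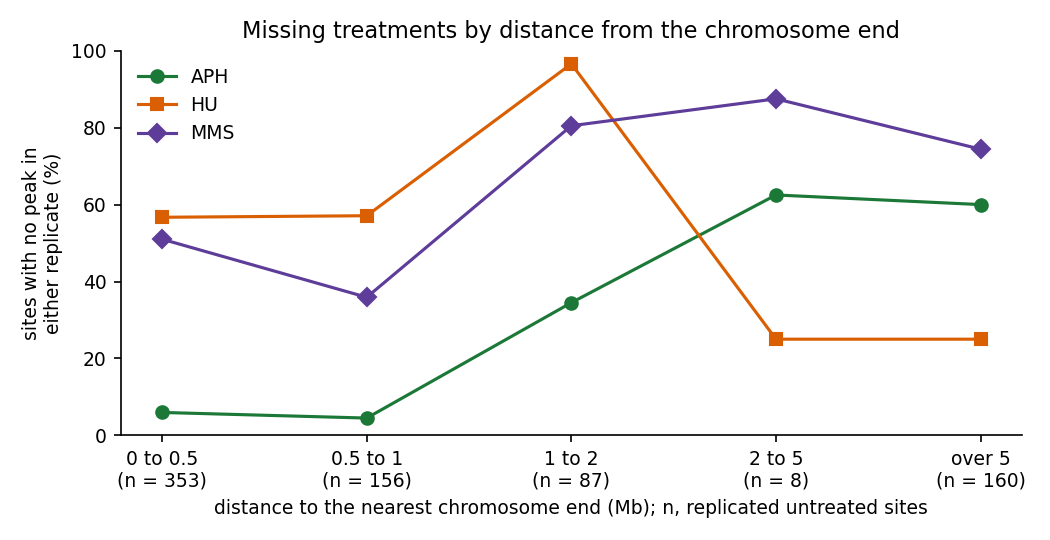
Percentage of replicated untreated sites with no peak in either replicate of APH, HU or MMS (vertical axis) by distance to the nearest chromosome end (horizontal axis, with the number of sites). APH was missing at 5.95% of sites within 0.5 Mb and 60.0% beyond 5 Mb and HU at 56.7% and 25.0%; the 2 to 5 Mb class holds 8 sites.

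With distance from the end, the shares changed in steps. HU was missing at 56.7% of the 353 replicated sites within 0.5 Mb, 57.1% of the 156 from 0.5 to 1 Mb, 96.6% of the 87 from 1 to 2 Mb and 25.0% of the 160 beyond 5 Mb. APH was missing at 5.95%, 4.49%, 34.5% and 60.0% of the same classes. The class from 1 to 2 Mb consisted almost wholly of 9p, which held 80 of its 87 sites.

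Members were found at 29 of the 44 autosomal ends, and 5 ends held 299 of them (49.6%). The end of 9p held 147, 17q 46, 17p 42, 5q 33 and 21q 31. The next were 5p with 26, 22q with 17, 12p with 15, 2p with 14 and 18q with 13. The ends of 13p, 14p, 15p, 21p and 22p held 0 peaks in all 8 lists, and they are counted in the 44 ends and in the 7.65% of sequence. Without 9p, 456 members were left, of which 311 (68.2%) were at ends and 268 lacked HU.

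**Figure D5:**
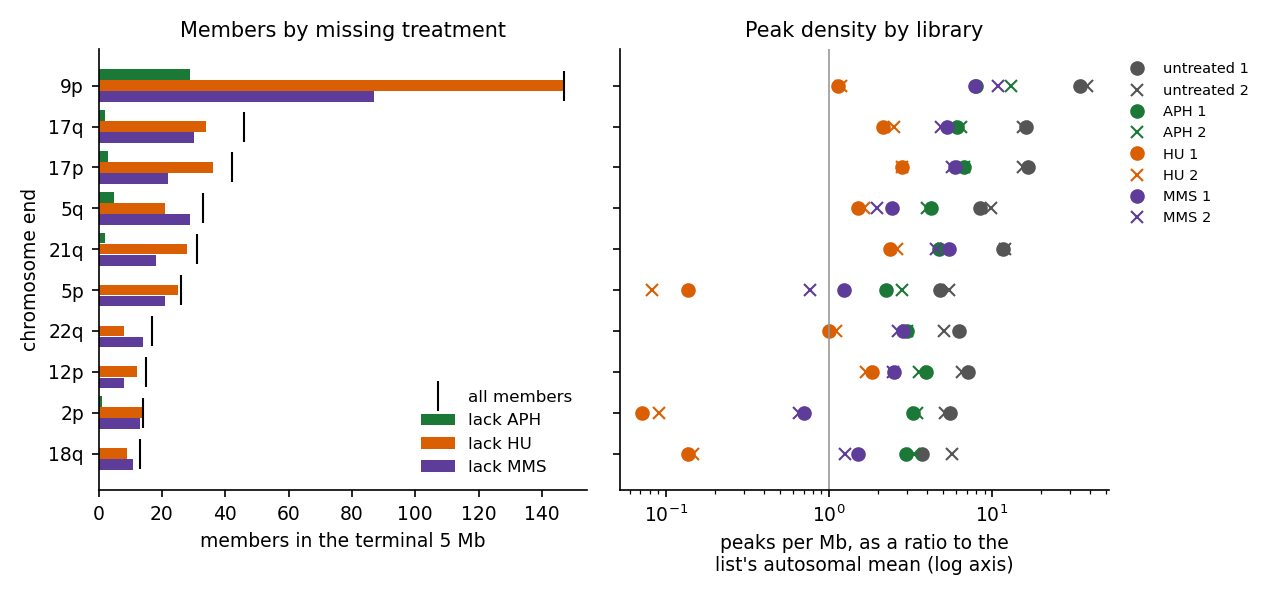
Left, members in the terminal 5 Mb of the 10 ends that hold the most (black mark) and how many of them lack each treatment (bars). Right, peaks per Mb in the same 5 Mb in each of the 8 lists, as a ratio to that list's autosomal mean on a log axis; at 9p the ratios are 34.5 and 38.0 in the untreated lists and 1.13 and 1.18 in the HU lists.

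The end of 9p held 184 replicated sites, of which 147 were members and the others had a peak under each treatment, HU included. All 147 members there lacked HU, 87 lacked MMS, 29 lacked APH and 26 lacked all 3. The terminal 5 Mb of 9p held 287 and 286 untreated peaks, 246 and 319 APH peaks, 157 and 144 HU peaks and 166 and 199 MMS peaks. As a ratio to the mean density of each list, the untreated values were 34.5 and 38.0, those for APH 8.01 and 13.1, those for MMS 7.82 and 10.9 and those for HU 1.13 and 1.18. The HU lists were thus near their own genome mean at 9p, which was the end with the highest untreated density of the 44.

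Within 9p, the first and the second Mb differed. From 1 to 1000000 there were 66 members of 103 replicated sites, of which 66 lacked HU, 20 MMS and 1 APH. From 1000001 to 2000000 all 80 replicated sites were members, of which 80 lacked HU, 66 MMS and 27 APH. Untreated peaks numbered 120 and 144 in the first Mb and 149 and 123 in the second. APH peaks numbered 153 and 160, then 55 and 103, and MMS peaks 135 and 149, then 16 and 19. Both APH and both MMS lists thus held fewer peaks in the second Mb, while the untreated lists held more in replicate 1 and fewer in replicate 2. In the second Mb, 5 of the 80 members touched a gene, against 58 of 66 in the first. The largest cluster, with members no more than 100 kb apart, ran from chr9:617458 to 1785927 and held 126 members.

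At 2p HU peaks were nearly absent, and at 5p they were few. The first Mb of 2p held 44 and 35 untreated peaks, 80 and 69 APH peaks, 0 and 1 HU peaks and 5 and 4 MMS peaks, and all 14 of its replicated sites lacked HU. At 5p the first Mb held 39 and 37 untreated, 53 and 52 APH, 10 and 6 HU and 14 and 10 MMS peaks, and 24 of its 25 members lacked HU. The first Mb of 17p, next after both bins of 9p with 41 members, held 113 and 97 untreated, 125 and 127 APH, 32 and 36 HU and 82 and 60 MMS peaks. Other ends held many HU peaks. The first Mb of 12p had 95 and 83 beside 44 and 39 untreated ones, and the last 1 Mb bin of 22q 56 and 61 beside 45 and 35. Over the terminal 5 Mb, the density of HU peaks was above the mean of its list at 17p (ratios of 2.79 and 2.82), 17q (2.14 and 2.52), 21q (2.38 and 2.61) and 12p (1.83 and 1.68).

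The genes that held most members were long genes near chromosome tips. GENCODE genes (release 44) covered part of 355 members (58.9%), a share that was 85.1% at kept sites and 64.8% over all untreated replicate 1 peaks. Kept sites were wider than members (medians of 2623 and 942 bp), and a wider peak touches a gene or an exon more easily. By place, 209 members lay in introns, 74 touched a coding exon, 23 an exon with untranslated sequence and 49 a non-coding exon, and 248 were outside genes. Introns held 34.7% of members, 31.7% of kept sites and 45.0% of all untreated replicate 1 peaks. In the same order, a coding exon was touched by 12.3%, 32.9% and 9.71%, and a non-coding exon by 8.13%, 14.9% and 6.51%. Members were also wider than all untreated replicate 1 peaks (median of 534 bp), so width may enter these shares too. In all, 198 genes held a member, 127 of them protein-coding, and 94 of the coding genes held 1.

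DMRT1 (chr9:841690-969090, plus strand), a transcription factor gene of testis development, held 25 members, the most of any gene. Their fold enrichment ran from 2.38 to 3.31 with a median of 2.84 in untreated replicate 1 and from 2.52 to 3.14 with a median of 2.78 in replicate 2. Of the 25, 19 and 23 had a peak in the 2 APH replicates and 6 and 13 in the MMS replicates, while 0 had one in either HU replicate. The gene had 27 replicated sites in all and 3 HU peaks in each replicate, none of which lay at the 25 members. DOCK8 (chr9:214854-465259, plus strand), which encodes a guanine nucleotide exchange factor important in lymphocytes, held 19 members with median enrichments of 2.70 and 2.80. APH peaks were present at 18 and 17 of them, HU peaks at 0 and 0 and MMS peaks at 11 and 11. DOCK8 as a whole still held 17 and 22 HU peaks, at places other than these 19 sites.

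TBCD (chr17:82752042-82945914, plus strand), a cofactor of tubulin folding, held 19 members, of which 17 and 18 had an APH peak, 1 and 0 an HU peak and 7 and 8 an MMS peak. NXN (chr17:799310-979776, minus strand), which encodes the redox protein nucleoredoxin, held 17, of which 16 and 12 had an APH peak, 0 and 0 an HU peak and 3 and 2 an MMS peak. No HU peak was listed anywhere in NXN in either replicate, against 40 and 28 untreated and 49 and 48 APH peaks. DIP2A (chr21:46458891-46570015, plus strand) held 16 members, with APH peaks at 16 and 16, HU peaks at 0 and 1 and MMS peaks at 6 and 3. In all 5 genes HU was missing and APH present at most of the members, as among the members at their chromosome ends. The members were chosen for a missing treatment, so this is no trait of the genes as a whole. Replicated sites numbered 27 in DMRT1, 36 in DOCK8, 31 in TBCD, 17 in NXN and 28 in DIP2A. All 17 in NXN were members, and in the other genes the remaining replicated sites had a peak under each treatment, HU included.

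The gene groups that were counted held few members. Olfactory receptor genes held 7, in OR2V1 and OR2V2 at the end of 5q, which is 1.16% of members against 0.251% of all untreated replicate 1 peaks. Zinc finger genes held 3 (ZNF250, ZNF268 and ZNF750), which is 0.498% against 0.774%. The antigen receptor loci, which B cells rearrange, held 1, in IGHVIII-82 (0.166% against 0.0209%), and the large genes of common fragile sites held 1, in RAD51B (0.166% against 0.314%). The B lymphocyte genes and the replication stress and repair genes held 0 members, and they held 4 (0.0837%) and 3 (0.0628%) of the 4779 untreated replicate 1 peaks. Counts this small allow no comparison. Common fragile site bands, the regions that break under mild replication stress, held 129 members (21.4%), near their 26.2% of autosomal sequence, with 27.5% over all untreated replicate 1 peaks and 15.5% at kept sites.

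Away from the ends, 145 members were spread over 20 chromosomes and 106 bins of 1 Mb, 82 of which held 1 member. Of these 145, 119 lacked MMS, 96 APH and 40 HU. The bins with most were chr6:27000001-28000000 with 8 members, chr17:8000001-9000000 with 6 and chr6:26000001-27000000 with 4. In the first of these, untreated fold enrichment ran from 2.49 to 2.82 in replicate 1 and from 2.40 to 3.08 in replicate 2, and 7 sites lacked APH, 6 HU and 8 MMS. On chromosome 17, 5 of the 6 lacked APH, 4 MMS and 0 HU. These bins hold tRNA genes, which are short genes read by RNA polymerase III, and a count of members near such genes was added after their positions had been seen. Within 10 kb of a tRNA gene of the RefSeq table (GRCh38.p14) lay 41 members (6.80%), against 2.57% of all untreated replicate 1 peaks and 4.35% of kept sites. The share was 13.8% (20 of 145) for members away from the ends and 1.99% for unreplicated peaks away from the ends. The 3 bins that prompted the count held 7, 3 and 4 of these 20 (chr6:27000001-28000000, chr6:26000001-27000000 and chr17:8000001-9000000). The 13.8% thus largely repeats what had been seen, and a link with tRNA genes was not tested. No member overlapped a tRNA gene, and 14 of the 41 were in 1 bin at the end of 5q.

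A small set of members near centromeres had low fold enrichment with strong p-values. Of the 6 members with a mean untreated enrichment under 2, 5 lacked HU alone and had q-values of at most 0.05 in both untreated replicates. They lay on chromosome 17 (chr17:25919925-25920494, chr17:26603578-26604129, chr17:26881084-26881667 and chr17:26885149-26885692) and chromosome 16 (chr16:34582058-34582621). At chr17:26881084-26881667, enrichment was 1.79 and 1.86 without treatment, 1.89 and 1.81 under APH and 1.88 and 1.80 under MMS, and the nearest HU peaks were 324975 and 333275 bp away. The 4 treated values there lay close to the untreated ones. Low enrichment with strong p-values was also found at kept sites on chromosome 16. At chr16:34587923-34588500 untreated enrichment was 1.67 and 1.73 with a −log10 p of 36.8 and 41.4. At chr16:46390367-46390976 it was 1.41 and 1.54 with a −log10 p of 29.4 and 47.4. The 5 members were outside genes, and they account for 5 of the 6 members that reached a q-value of at most 0.05 in both replicates.

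The members that lacked all 3 treatments were mostly found on 9p or away from the ends. Of the 61, 26 were at the end of 9p and 21 away from any end. Among the 10 with the highest enrichment, 5 were on 9p, including a site (chr9:1056105-1056454) in a coding exon of DMRT2, a gene of the same family as DMRT1. That site had enrichments of 3.12 and 2.90. The others included an intron of PTPRS, a receptor tyrosine phosphatase gene (chr19:5217189-5217693, 3.46 and 2.66), an intron of POM121L2 (chr6:27306032-27306694, 2.82 and 2.78) and an exon of DHRS1 with untranslated sequence (chr14:24290305-24290784, 2.76 and 2.83). Distances to the nearest peak differed between 9p and the rest. For the 26 sites on 9p the median was 1369 bp to an APH peak, 125587.5 bp to an HU peak and 10741.5 bp to an MMS peak. For the other 35 it was 6884 bp for APH, 2382 bp for HU and 18304 bp for MMS, so that HU peaks were far away on 9p and close by elsewhere.

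In base composition the members differed little from other untreated peaks. Median GC content was 45.1% at members, 45.9% at kept sites and 46.6% over all untreated replicate 1 peaks, with 44.6% at members at ends and 47.5% at members elsewhere. The ratio of observed to expected CpG was 0.241 at end members and 0.158 elsewhere, beside 0.244 and 0.170 for unreplicated peaks in the same places. The CpG difference between ends and other places was thus also present in unreplicated peaks. A telomere-like hexamer (TTAGGG or CCCTAA, searched as both strands of the same motif) occurred in 33.8% of members, 66.5% of kept sites and 23.1% of all peaks, an order that is also that of their widths. In a window of 500 bp around each centre, which gives all sites the same length, it occurred in 15.6%, 16.1% and 18.6%. Runs of at least 20 A or T were found in 4.64% of members, 21.1% of kept sites and 1.97% of all peaks over whole peaks. In the windows the shares were 1.99%, 1.24% and 0.774%, and all 12 member windows with such a run were at ends. Short tandem repeats (20 bp or more of an exactly repeated unit of 1 to 6 bp) were in 4.98% of member windows, 4.97% of kept windows and 3.45% of all windows. A repeat with a period of 7 to 100 bp, counted where 90% of bases over 100 bp matched, was in 1 member window and 1 kept window. Over all 4779 windows it was in 5.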

How the data were processed

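The authors trimmed paired reads, aligned them with Bowtie2 to GRCh38 (hg38), removed reads with a mapping quality below 40 and PCR duplicates, and called broad peaks in each replicate with MACS2 against input at a p-value of 0.001, leaving out blacklisted regions. Replicates were not pooled. The deposited lists give for each peak a score, a fold enrichment (a ratio to input), and −log10 of the p-value and of the q-value, all made by the authors. All 213467 peaks lay within GRCh38 chromosome lengths. The score column was not used.

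Overlaps, distances, annotation (GENCODE release 44, RefSeq GRCh38.p14) and sequence were computed with Python 3.11.15, pandas 2.3.3 and samtools 1.23.1, and the overlap code was checked on simulated lists. Fragile site bands came from a list of the study's supplement. No test was made: groups have 2 replicates, members were selected on the lists themselves, and sites cluster. The members and the gene lists were chosen with earlier results of these data known. Sites named in the text were the strongest by mean untreated enrichment (10 lacking all 3, 2 of each other combination), the 5 genes, 3 ends and 3 bins with most members, the widest 3 and those nearest each limit. Printed stretches skip chromosome 8, untranslated sequence and unknown bases, and those for 2 combinations are not reported here. Other sites and ends named were chosen after their values were seen. Alternatives changed the overlap, distance, p-value, list size, replicates, windows and annotation.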

Additional observations from a re-analysis of the deposited data

How the results depend on the processing

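Counts are given in the order members, then members lacking APH, HU, MMS and all 3, which were 603, 159, 415, 432 and 61. Requiring no treated peak within 10 kb gave 338, 35, 221, 178 and 0. A −log10 p of at least 4 gave 128, 7, 108, 59 and 3 when asked of the untreated lists and 178, 30, 152, 134 and 24 when asked of all 8. Limiting the treated lists to their strongest peaks gave 258 for APH, 710 for HU and 215 for all 3, and counting a treatment as missing when either replicate lacked the site gave 314 for APH and 211 for all 3. Leaving out 1 replicate gave ranges of 612 to 4515, 159 to 3245, 415 to 2399, 432 to 3997 and 64 to 1600. The highest came from leaving out an untreated replicate, with which every peak of the other entered, and among treated ones those over 1.5 times were APH without its replicate 1 (245) and all 3 without APH replicate 1 (92) or 2 (102). Without 9p, chosen after seeing the data, HU was 268 and all 3 was 35. The share at ends was 60.7% for 1 Mb, 80.3% for 10 Mb, 68.2% without 9p and 29.1% over joined loci (the last 2 also added). The share in genes was 49.9% for coding genes, 64.3% in RefSeq and 68.6% over joined loci, and the share in clusters 83.9% at 500 kb. Of 102 recomputed values, the other 59 were within 1.5 times, or for shares within the 95% interval. Adding chromosome X changed nothing, as the untreated lists hold 0 peaks there. No paired analysis was possible because no result comes from a test. Depth is unknown, and a missing peak is a peak under the caller's threshold, not a measured absence of γH2AX.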
